A study of Macaca mulatta and Mus musculus and Rattus norvegicus with 12 samples.

Results

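The 34 genes described here are those of the red cell lineage: 7 enzymes of heme synthesis and 2 mitochondrial carriers that serve it, 10 proteins of the red cell membrane and surface, the transferrin receptor, 5 transcription factors, the erythropoietin receptor, 7 other erythroid proteins and the microRNA MIR451. They were given as a list of symbols, and a row of a count table was taken as a member when its symbol in upper case was on the list, a rule that uses no measured value. By their own symbol 30 of 34 members were found among 38599 mouse symbols, 33 among 35259 rat symbols and 27 among 28641 macaque symbols. The tables together held 75861 symbols. In mouse, EPB41, EPB42 and CA1 stood under older symbols and AHSP had no row among the symbols used. In rat, EPB41 stood under an older symbol and GATA1 had 2 rows without a read. In macaque, EPB42, SLC4A1, ICAM4, KLF1, GATA1 and TAL1 were reached through locus numbers that a RefSeq gene table names, and NFE2 had no row among those used. Rows under another symbol are described but are left out of the counts, except where stated.

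The libraries came from a study that sequenced polyadenylated RNA of the skull vault (calvaria) and of the tibia in 3 species, after treating the bone so as to retain mainly osteocytes, the cells buried in its matrix, and that asked how bone of these sites differs. The mice were female C57BL6 of 4 months, and calvariae M4 and M8 and tibias M5 and M7 each pooled 3 animals. The rats were female Wistar of 6 months, with calvaria R1 and tibia R3 as 1 pool of 2 animals. The rhesus macaques were female, with calvariae G1, G3 and T1 and tibias G2, G4 and T2 each from a single animal, and their age of 4 to 6 is in months by the labels and in years by the study's methods. By the methods the calvaria and tibia of a species came as pairs from the same animals or pools, and which libraries form a pair is not named. The labels name no transgene or treatment. By the methods, marrow was spun out of rodent tibias, rodent calvariae were cut clear of sutures and marrow spaces, and macaque bone was sawn, with no removal of marrow stated for it. All mouse and rat libraries ran on one sequencing lane and all macaque libraries on another, so species and lane cannot be told apart. Reads counted on genes numbered between 13934813 and 16826535 in mouse, 14255423 (calvaria) and 12233256 (tibia) in rat, and between 7951585 and 10342459 in macaque.

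Red cells arise from erythroid precursors in the bone marrow, which mature into erythroblasts, fill with hemoglobin and in mammals expel their nucleus. Heme is made from glycine and succinyl-CoA by a chain of enzymes that starts and ends in the mitochondrion, where iron brought in through the transferrin receptor is inserted into protoporphyrin. In these cells GATA1, TAL1 and KLF1 switch on the genes of heme synthesis, globin and the membrane skeleton, while erythropoietin keeps the precursors alive through its receptor. Several members, among them most heme enzymes after the first, are also made in many other cells. Bone contains marrow spaces and vessels, and in bulk RNA fewer cells of a type and less RNA per cell cannot be told apart.

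Sequences are shown for the 3 members in which the RNA itself carries a known signal. MIR451 is read from a short hairpin that AGO2 cuts without the help of DICER, and it was the only member past the mouse thresholds. In mouse it lies at chr11:78073170-78073241 on the plus strand (GRCm38, GENCODE vM21), where its row is 72 bases long. Its hairpin follows, with the arms of 16 bases that pair perfectly with each other in capitals around a loop of 6 bases.
Mir451a: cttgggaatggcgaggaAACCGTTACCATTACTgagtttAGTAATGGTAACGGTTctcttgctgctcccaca
The gene Mir451b overlaps it on the other strand, Mir144 ends 99 bases before the hairpin and Eral1 lies 134 bases beyond it on the other strand. The reads were longer than the row, so the row reports transcripts that run over the hairpin and is no measure of the mature microRNA.

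ALAS2 and TFRC share a stem and loop, the iron responsive element, which iron regulatory proteins bind when iron is scarce. In the 5′ UTR of Alas2 this blocks translation, and in the 3′ UTR of Tfrc it protects the mRNA from decay. The elements were found on the transcript strand of GENCODE vM21 transcripts as a C, any 5 bases, CAGTG and any base, where the 5 bases on either side pair, G with U included. The loop is in capitals, and the Tfrc elements follow their order in the transcript.
Alas2, 5′ UTR: ggttcgtcctCAGTGCagggcaaca
Tfrc, 3′ UTR, element 1: ttatcggaagCAGTGCcttccataa
Tfrc, 3′ UTR, element 2: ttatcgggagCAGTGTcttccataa
Tfrc, 3′ UTR, element 3: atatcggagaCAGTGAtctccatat
Tfrc, 3′ UTR, element 4: ttatcgggaaCAGTGTttcccataa
The same pattern was present in 565 of 58797 protein-coding transcripts (0.961%) and in 294 of 21901 genes (1.34%), so a match is a description and not a shown site. Alas2 spans chrX:150547375-150570638 on the plus strand and Tfrc chr16:32608920-32632794 on the plus strand.

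Levels are given as normalized CPM, counts per 1 M reads on genes, with TMM factors applied in mouse and macaque and without them in rat. Values for macaque calvariae stand in the order G1, G3 and T1 and those for macaque tibias in the order G2, G4 and T2, while mouse values stand in the order M4 and M8 for calvaria and M5 and M7 for tibia. Positive log2 fold changes stand for a higher level in calvaria. A gene is called differentially expressed when the quasi-likelihood test of edgeR gave a Benjamini-Hochberg adjusted p under 0.2 over all genes of the species and the fold change exceeded 1.1, which are the study's thresholds. Rat has no replicates, and its log2 ratio of CPM with 1 read added was compared with the study's size limit, a log2 ratio of 2.

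Some libraries stood apart. The summed level of 7 osteocyte markers (SOST, DMP1, MEPE, PHEX, FGF23, PDPN, IRX5) was 1963 CPM in mouse calvaria M4 and 1082 CPM in M8 against 7816 and 10682 CPM in the tibias, and 5 of the 7 were called higher in mouse tibia. In rat the sum was 519 CPM in calvaria and 7513 CPM in tibia, with FGF23 at 0 reads in both and SOST at 5 and 15 reads. In macaque, where 4 of the 7 had a row, it was 4934 to 5734 CPM in the calvariae and 16888, 17078 and 7553 CPM in tibias G2, G4 and T2. Of these 4, 1 was called higher in tibia and 1 had a log2 fold change above 0, with a median of -0.25. Most of the sum was MEPE, with 151125, 146051 and 73130 reads in G2, G4 and T2. The sum of T2 was thus nearer to the calvariae through MEPE, while IRX5 had 1384, 1324 and 2907 reads in G2, G4 and T2. Lists were matched by their own symbols, and the macaque locus row that RefSeq names SOST had 207, 91 and 267 CPM in the calvariae and 553, 588 and 489 CPM in the tibias, each tibia above each calvaria. Neutrophil markers summed to 93702 and 126558 CPM in the mouse calvariae against 58409.7 and 66230.5 CPM in the tibias (2 of 9 called), to 82451 and 44603 CPM in rat calvaria and tibia, and to 36646 to 60464 CPM in macaque calvariae against 7369.9 to 15125 CPM in macaque tibias (6 of 6 called). B cell markers summed to 282 to 329 CPM in mouse, where 2 of 8 were called higher in calvaria. Only 3 of these 8 had a log2 fold change above 0, and their median was -0.10. The sums were 319 and 448 CPM in rat calvaria and tibia, although 5 of 6 rat ratios were above 0. Macaque had 23.8 to 29.2 CPM in the calvariae against 3.77 to 11.9 CPM in the tibias (2 of 3 called). Skeletal muscle markers were highest in mouse calvaria M4 (1291 CPM) and lowest in tibia M5 (138 CPM), and stood at 6.8 CPM in rat calvaria, 409.9 CPM in rat tibia and 0.848 to 8.64 CPM in macaque. Hemoglobin chains took 3.41% of reads in M4, 6.77% in M8, 3.8% in M5 and 5.23% in M7, 9.84% in rat calvaria and 5.63% in rat tibia, and 4.24% to 5.85% in macaque calvariae against 0.932% to 1.6% in macaque tibias. The part of these cells in the differences below was not tested.

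**Figure D1:**
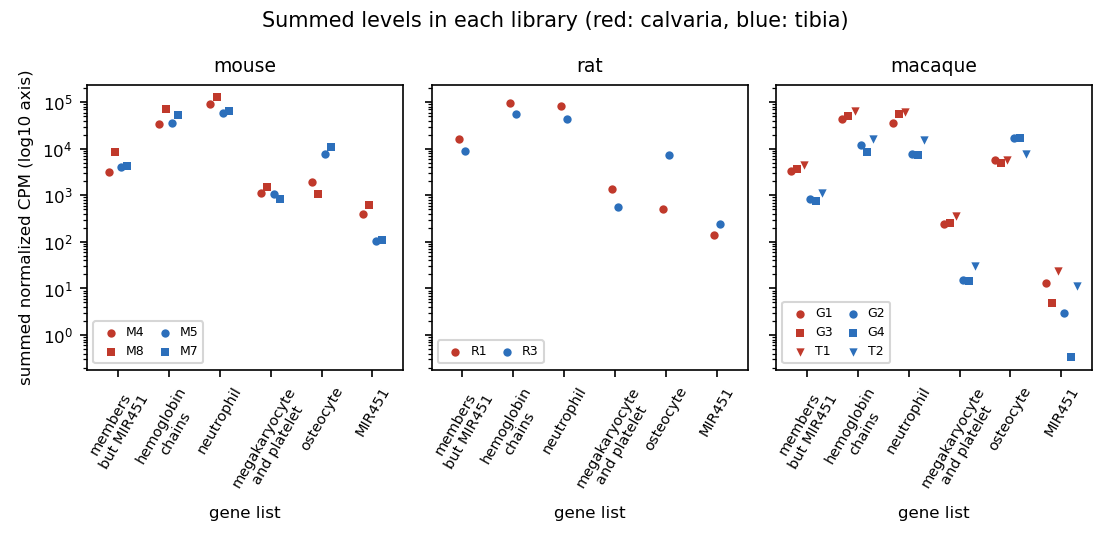
Summed normalized CPM of the members without MIR451, of 4 marker lists and of MIR451 in each library, on a log10 axis, with calvaria in red and tibia in blue. In macaque the members, the hemoglobin chains and the neutrophil markers are higher in each calvaria than in each tibia, in mouse the members are highest in M8 and lowest in M4, and in rat MIR451 and the osteocyte markers are higher in tibia.

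In macaque, 24 of 27 members were differentially expressed, all of them higher in calvaria, where 19.7% of the 18894 tested genes were called in either direction, 10.3% higher in calvaria and 9.43% higher in tibia. The median log2 fold change of the members was 2.02 (a 4.05-fold difference) with a range of 0.09 to 2.85, and that of all tested genes was 0.03. Each calvaria library exceeded each tibia library for 23 members, as it did for 12.8% of all tested genes, and the exceptions were ANK1, MIR451, SLC25A38 and TFRC. The members not called were SLC25A38, TFRC and TRIM58. Without tibia T2 there were 25 called members and the median was 2.28. Calls over all genes rose as well in that fit, to 4998 of 18549, with 2680 higher in calvaria. Scaled by library size alone, the members had a median of 1.84 and all tested genes one of -0.18, and 30.7% of the called genes were higher in calvaria in place of 52.2%. The 6 members found through locus numbers were all called as well, with log2 fold changes of 1.31 to 2.57. At an adjusted p under 0.05 in the same edgeR test 20 members were called, where 1978 of the 18894 tested genes were, 1101 of them higher in calvaria. All 27 members had a log2 fold change above 0, as did 51.3% of all tested genes. Libraries were also set side by side by name order, which is an assumed pairing. The median ratio was 3.97 for G1 over G2 and 3.97 for T1 over T2. For G3 over G4 it was 4.46 over the members read in G4, which leaves out SPTB, ANK1, ERMAP and TRIM10. With a replicate block for assumed pairs 25 members were called, because TFRC passed (log2 fold change 1.02, adjusted p = 0.12 in edgeR). Over all genes this block gave 4784 calls, 2456 of them higher in calvaria.

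In mouse, 1 of 30 members was differentially expressed, MIR451, where 2.28% of the 22339 tested genes were called, 0.712% higher in calvaria and 1.57% higher in tibia. The median log2 fold change of the members was 0.53 against 0.05 for all tested genes, and 29 of 30 members were above 0, as were 53.7% of all tested genes. At an unadjusted p under 0.05 in the same edgeR test there were 6 members. The share of all tested genes past that limit is not given, so nothing is drawn from this count. The calvariae did not form a group for most members: M8 was the highest of the 4 libraries for all 30 members, which held for 32.6% of all tested genes, and M4 was the lowest for 18 of them, which held for 21.2%. Both held together for the same 18 members, against 11.4% of all tested genes. M4 was above both tibias for 5 members (EPOR, MIR451, NFE2, PPOX and UROD), so each calvaria exceeded each tibia for 5 of 30, against 17.3% of all tested genes. The ratio of M8 to M4 had a median of 2.46 over the members, from 1.33 (PPOX) to 22.6 (TRIM58, which had 1 read in M4), and of 1.01 over the 14490 genes with a mean over 1 CPM. Between the tibias, the ratio of M7 to M5 lay between 0.807 (TRIM58) and 1.31 (KEL). Without M4, 29 of 30 members were called higher in calvaria, but 16.2% of all genes were then called in that direction and the single calvaria left was assumed to vary like the tibias. Without M8, 10 members were called higher in tibia and 2, NFE2 and MIR451, higher in calvaria, with 8.65% and 8.91% of all genes called in these directions, and the median log2 fold change was -0.29.

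In rat, no member passed the limit of 2, where 9.69% of 19234 genes did and 1.55% did so toward calvaria. The ratio was above 0 for 31 of the 32 members with reads, as it was for 34.2% of all rat genes, and the exception was MIR451. The median log2 ratio of the members was 0.77, with a range of -0.73 to 1.47, and that of all genes was -0.29. With TMM factors both medians moved up, to 1.06 for the members and to 0.00 for all genes, and 31.5% of the genes past 2 were higher in calvaria in place of 16%. Past a ratio of 1 stood 4 members, RHAG, CA1, AHSP and TRIM58, against 6.8% of all genes, and TRIM58 rested on 15 against 4 reads, with a 95% counting interval that began at 0.04. With TMM factors 18 members passed 1, against 12.9% of all genes. These values compare 1 library with 1 library and have no replicate check.

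**Figure D2:**
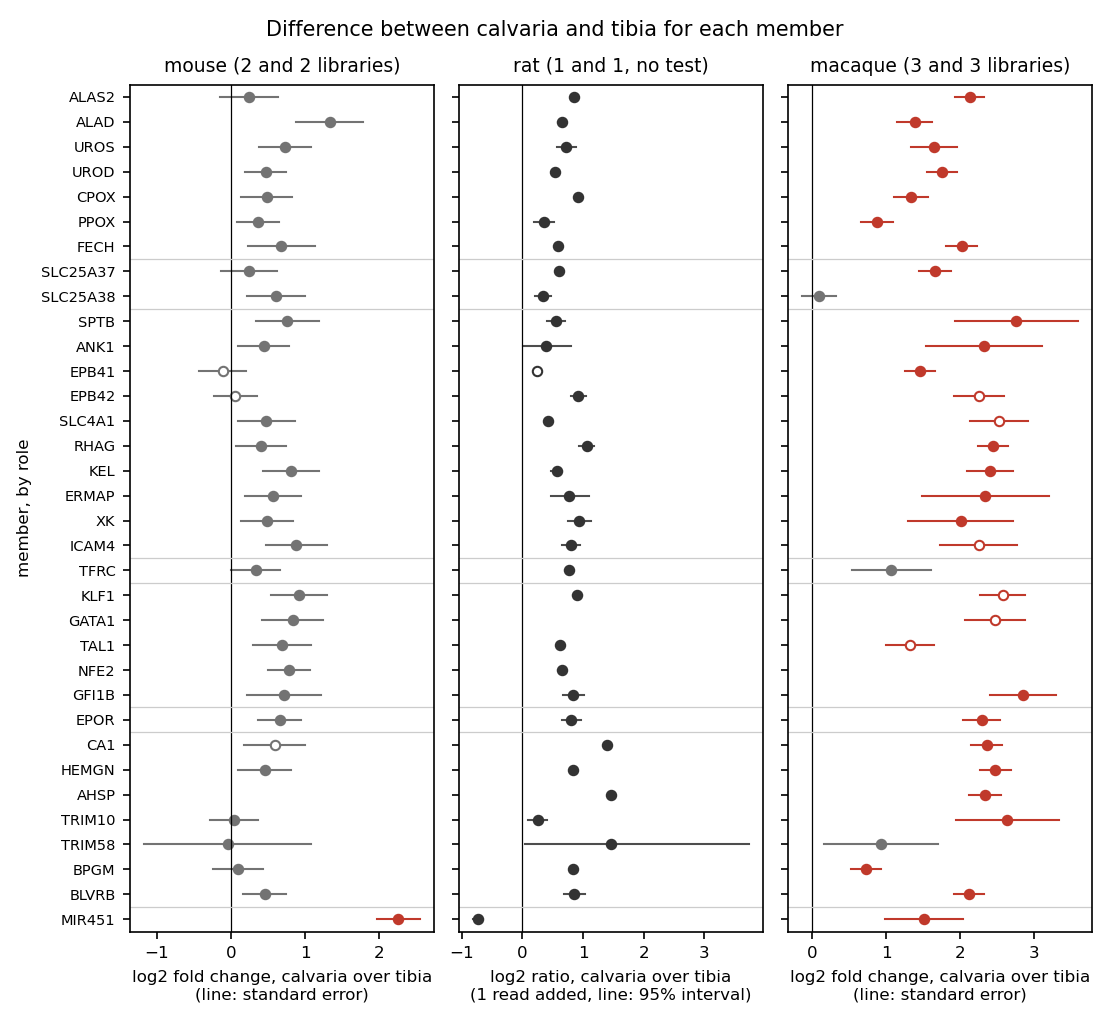
Difference between calvaria and tibia for each member, by role, with log2 fold changes and standard errors in mouse and macaque and log2 ratios with 95% counting intervals in rat. Red points are called, open points are rows under another symbol, and the median over the members is 0.53 in mouse, 0.77 in rat and 2.02 in macaque.

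By role, the macaque log2 fold change had a median of 1.64 over the 7 heme enzymes (7 called, range 0.87 to 2.13), of 2.32 over the 10 membrane proteins with rows under another symbol included (10 called, range 1.45 to 2.76) and of 2.52 over the 4 transcription factors with a row, counted likewise (4 called, range 1.31 to 2.85). The 7 other erythroid proteins had a median of 2.34, with 6 called. A set of 12 members was classed here as made in many cell types. It held UROD, UROS, CPOX, PPOX, FECH, ALAD, SLC25A37, SLC25A38, EPB41, TFRC, BPGM and BLVRB. Their median was 1.42 with 10 called, and the other 15 had a median of 2.34 with 14 called. This class was a choice and was not checked in these data, and its lowest values were those of SLC25A38 (0.09) and BPGM (0.73). In mouse the medians were 0.48 for the heme enzymes, 0.48 for the 10 membrane proteins and 0.78 for the 5 factors, with none of them called. In rat they were 0.65, 0.67 and 0.74. The ranges of the roles overlapped in each species, and the roles were not tested against each other.

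ALAS2, the erythroid form of the first and rate-limiting enzyme of heme synthesis, had the highest mean level per length of exon of the heme enzymes over both sites in all 3 species. In macaque ALAS2 stood at 828, 847 and 1014 CPM in the calvariae and at 192, 168 and 256 CPM in the tibias. The groups were far apart, with a log2 fold change of 2.13 ± 0.195 (SE, adjusted p = 1.95e-10 in edgeR). Mouse ALAS2 had 199 and 608 CPM in the calvariae and 309.9 and 373 CPM in the tibias, with M4 below and M8 above both tibias. The mouse log2 fold change was 0.24 ± 0.391 (SE, adjusted p = 0.874 in edgeR), and the means were 403 ± 289 and 342 ± 44.9 CPM (SD, n = 2). Rat ALAS2 had 16696 reads, or 1171 CPM, in calvaria and 7949 reads, or 649.8 CPM, in tibia. In mouse its exons share bases with Apex2 and Mir3620 on the other strand, and counting ignored strand, so reads of these genes cannot be told apart there. The same holds in mouse for ANK1, CPOX, EPB41, ICAM4, PPOX, SLC25A37 and SPTB, which each share exon bases with a gene on the other strand.

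FECH, ferrochelatase, inserts iron into protoporphyrin as the last step. Its macaque level lay at 106, 84 and 111 CPM in the calvariae and at 24.2, 18.8 and 31.5 CPM in the tibias, and its log2 fold change of 2.02 ± 0.213 (SE) was the second largest of the enzymes. In mouse FECH had 131 and 547 CPM in the calvariae and 210.2 and 213 CPM in the tibias, so that M8 exceeded M4 by 4.19 times while the tibias differed little. Rat FECH had 1341 CPM in calvaria and 897 CPM in tibia. UROD, which decarboxylates uroporphyrinogen, was second to ALAS2 in the mean per length over both sites in all 3 species, although CPOX was above it in rat calvaria and UROD above ALAS2 in mouse calvaria M4. Macaque UROD stood at 159, 192 and 255 CPM in the calvariae and at 52.9, 48.4 and 78.8 CPM in the tibias. Mouse UROD had 197 and 297 CPM in the calvariae and 170.0 and 187 CPM in the tibias. Both calvariae were above both tibias, as for 17.3% of all tested genes, and the adjusted p was 0.787 by the quasi-likelihood test of edgeR. Rat UROD had 454 CPM in calvaria and 312 CPM in tibia.

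ALAD, which joins aminolevulinate molecules into porphobilinogen, had the largest mouse fold change after MIR451, with M8 alone at a high level. Its mouse values were 178 and 714 CPM in the calvariae and 170.5 and 184 CPM in the tibias, M4 lying between the tibias. The mouse log2 fold change was 1.33 ± 0.451 (SE, adjusted p = 0.307 in edgeR), 0.01 without M8 and 1.99 without M4. Macaque ALAD lay at 32.8, 42.5 and 46 CPM in the calvariae and at 12.9, 15.4 and 18.2 CPM in the tibias, with a log2 fold change of 1.38. Rat ALAD had 365 CPM in calvaria and 232 CPM in tibia.  UROS, which closes the porphyrin ring, stood in macaque at 24.6, 18.7 and 33.9 CPM in the calvariae and at 7.44, 4.68 and 12.5 CPM in the tibias and in mouse at 21.8 and 50.9 CPM in the calvariae and 21.6 and 22 CPM in the tibias. CPOX, the mitochondrial coproporphyrinogen oxidase, stood in macaque at 41.6, 38.1 and 41.6 CPM in the calvariae and at 14.3, 15.8 and 17.9 CPM in the tibias and in mouse at 149 and 358 CPM in the calvariae and 169 and 193 CPM in the tibias. PPOX, which forms protoporphyrin, had the smallest macaque difference of the 7 (log2 fold change 0.87, standard error 0.211), at 47.4, 60.9 and 55.4 CPM in the calvariae and at 25.8, 28.3 and 35.2 CPM in the tibias. Mouse PPOX had 23.3 and 31.1 CPM in the calvariae and 19.6 and 22.6 CPM in the tibias, with the smallest ratio of M8 to M4 of the members (1.33). In rat UROS had 66.1 CPM in calvaria and 40.1 CPM in tibia. Rat CPOX had 1113 CPM in calvaria and 591 CPM in tibia, close to UROD per length. Rat PPOX had 52 CPM in calvaria and 40.5 CPM in tibia. Adjusted p-values for the 7 macaque enzymes lay between 1.95e-10 (ALAS2) and 0.00381 (PPOX) by the quasi-likelihood test of edgeR.

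**Figure D3:**
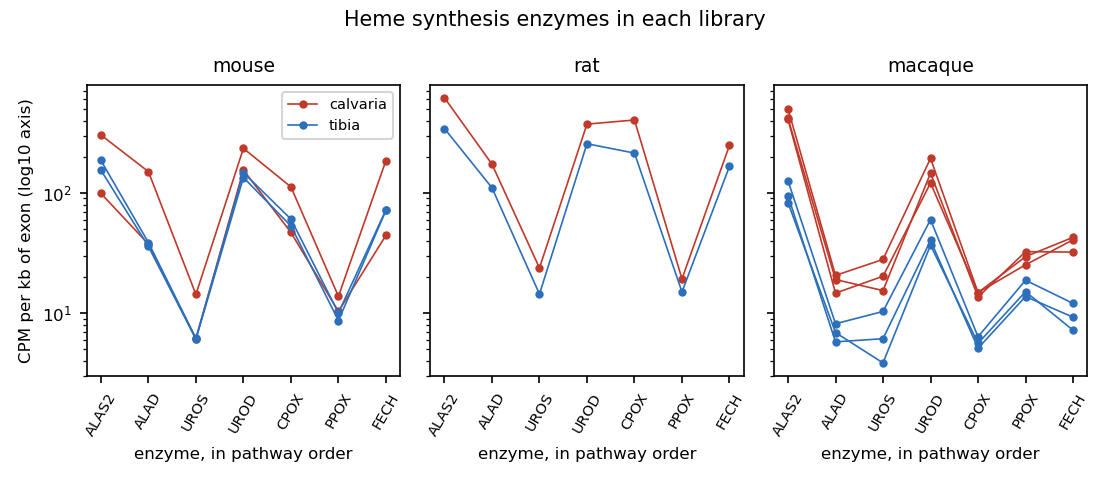
CPM per kilobase of merged exon for the 7 heme enzymes in pathway order, on a log10 axis, with 1 line per library (calvaria red, tibia blue). ALAS2 is the highest step in the mean of each species, and the macaque calvariae lie above the macaque tibias at every step.

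Per length of merged exon, mean levels over the sites ran in mouse from 185.9 CPM per kb for ALAS2 through 168 for UROD, 93.6 for FECH, 68.2 for CPOX, 65.7 for ALAD and 10.7 for PPOX to 8.18 for UROS. In macaque they ran from 272 for ALAS2 through 99.6 for UROD, 24.0 for FECH, 22.5 for PPOX, 14.0 for UROS and 12.5 for ALAD to 10.1 for CPOX. In rat CPOX, at 309 CPM per kb, was next to UROD at 315, below ALAS2 at 481. CPOX was thus the lowest of the 7 in macaque, while UROS and PPOX were the lowest in the rodents, and species cannot be told apart from the genome and annotation used.

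The carriers bring the substrates of heme to the mitochondrion. SLC25A37, mitoferrin, imports iron and had the higher mean per length of the carriers over both sites, although in each macaque tibia SLC25A38 was the higher in CPM. Its macaque level stood at 52, 47.4 and 59.9 CPM in the calvariae and at 16.6, 15.5 and 18.3 CPM in the tibias with a log2 fold change of 1.66 ± 0.22 (SE). In mouse SLC25A37 had 511 and 1517 CPM in the calvariae and 860.3 and 851 CPM in the tibias, with M4 the lowest library, and in rat it had 659 CPM in calvaria and 435 CPM in tibia. SLC25A38 imports glycine. Its difference by site in macaque was smaller than its error, with 26.3, 24.8 and 27.6 CPM against 25.1, 26.4 and 22.6 CPM and a log2 fold change of 0.09 ± 0.23 (SE). With library size alone as the scaling its value was -0.12. In mouse SLC25A38 ranged from 30.9 CPM (M4) to 93.0 CPM (M8). TFRC, the transferrin receptor that takes up iron and whose 3′ UTR elements are printed above, was low in macaque, at 4.7, 1.76 and 7.88 CPM in the calvariae and at 0.875, 2.63 and 3.3 CPM in the tibias. The groups overlapped, G3 lying under both G4 and T2, and the log2 fold change was 1.07 ± 0.532 (SE, adjusted p = 0.237 in edgeR). It was called in the fits without G3, G4 or T2 and with the replicate block. Mouse TFRC had 95.9 and 215 CPM in the calvariae and 123 and 124 CPM in the tibias, and rat TFRC had 411 CPM in calvaria and 241 CPM in tibia.

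The red cell membrane is held by a skeleton of spectrin, which ankyrin and protein 4.1 tie to the anion exchanger and to the Rh complex. SPTB, the erythroid beta spectrin, was sparse in macaque, with reads of 17, 17 and 26 in the calvariae and 5, 0 and 5 in the tibias. In CPM these were 2.05, 2.13 and 3.15 against 0.547, 0 and 0.485, and the log2 fold change was 2.76 ± 0.835 (SE, adjusted p = 0.0251 in edgeR). Tibia G4 had no SPTB, ANK1, ERMAP or TRIM10 read, which allows up to 0.342 normalized CPM by counting error. Mouse SPTB had 6.4 and 13.7 CPM in the calvariae and 6.5 and 5.34 CPM in the tibias, and rat SPTB had 71.1 CPM in calvaria and 48.2 CPM in tibia. ANK1, ankyrin, stood in macaque at 2.17, 1 and 5.7 CPM in the calvariae and at 0.547, 0 and 1.16 CPM in the tibias, where calvaria G3 was below tibia T2. Its call (log2 fold change 2.31, adjusted p = 0.0515) rested on T1, without which the values were 1.43 and 0.508 by the quasi-likelihood test of edgeR. In mouse ANK1 had 70.8 and 169 CPM in the calvariae and 84.8 and 91.6 CPM in the tibias and in rat 9.4 CPM in calvaria and 7.11 CPM in tibia. EPB41, protein 4.1, is also made in many other cells. In macaque EPB41 stood at 58.2, 70.6 and 71.9 CPM in the calvariae and at 23, 22.7 and 27.6 CPM in the tibias, the smallest difference of the membrane proteins, with a log2 fold change of 1.45. Its mouse row under an older symbol had 198 and 407 CPM in the calvariae and 307 and 346 CPM in the tibias, and its rat row 759.9 CPM in calvaria and 645 CPM in tibia. EPB42, protein 4.2, had in macaque 23.2, 19.2 and 56.8 CPM against 4.05, 5.71 and 11 CPM, in mouse 139 and 237 CPM in the calvariae and 178 and 183 CPM in the tibias, and in rat 124 CPM in calvaria and 65.8 CPM in tibia.

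SLC4A1, band 3, exchanges chloride for bicarbonate and had the highest mean per length of the membrane members in mouse and rat. Mouse SLC4A1 had 407 and 1248 CPM in the calvariae and 585 and 602 CPM in the tibias, so M8 was 3.07 times M4. Rat SLC4A1 had 20613 reads in calvaria and 13252 in tibia, or 1446 CPM in calvaria and 1083 CPM in tibia. In macaque its locus row stood at 18.4, 21.3 and 24 CPM in the calvariae and at 6.45, 0.685 and 3.88 CPM in the tibias, with G4 far below the other tibias, and the log2 fold change was 2.52 ± 0.398 (SE). RHAG, the Rh associated glycoprotein, led the membrane members per length in macaque. Its macaque level stood at 113, 116 and 139 CPM in the calvariae and at 18.2, 22.3 and 27.3 CPM in the tibias, with little spread within a site, and its log2 fold change of 2.44 had an SE of 0.207 (adjusted p = 2.8e-11 by the quasi-likelihood test of edgeR). Mouse RHAG had 67 and 151 CPM in the calvariae and 79.2 and 85.4 CPM in the tibias, and rat RHAG 121 CPM in calvaria and 58.3 CPM in tibia.

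KEL, a surface metalloprotease of the Kell blood group, had 27, 20.6 and 39.1 CPM against 5.36, 3.42 and 7.57 CPM in macaque calvariae and tibias. Its mouse values were 24.8 and 65.9 CPM in the calvariae and 22.4 and 29.3 CPM in the tibias, with M4 between the tibias. Rat KEL had 184 CPM in calvaria and 124 CPM in tibia. XK, the membrane partner of KEL, had 3.38, 1.76 and 2.54 CPM against 0.547, 0.342 and 0.971 CPM in macaque. Mouse XK had 13.1 and 26.1 CPM in the calvariae and 12.9 and 15 CPM in the tibias, and rat XK 51.1 CPM in calvaria and 26.7 CPM in tibia. ERMAP, an erythroblast surface protein, had 2.65, 1.13 and 2.79 CPM against 0.875, 0 and 0.388 CPM in macaque, where it was among the members with the fewest reads. Mouse ERMAP had 95.5 and 268 CPM in the calvariae and 129.9 and 115 CPM in the tibias, and rat ERMAP 18.4 CPM in calvaria and 10.7 CPM in tibia. The calls of XK and ERMAP in macaque changed with single libraries: XK was not called without G1 (adjusted p = 0.278 in edgeR) and ERMAP not without G1, G4 or T1 (0.202 to 0.245 in edgeR). ICAM4, an adhesion protein of the Landsteiner-Wiener blood group, had 22.8, 7.65 and 51.7 CPM against 4.7, 0.228 and 12.1 CPM in macaque, so that G3 was below T2. Mouse ICAM4 had 15.6 and 46.9 CPM in the calvariae and 15.2 and 18.7 CPM in the tibias, and rat ICAM4 74.8 CPM in calvaria and 43.1 CPM in tibia. In mouse M8 was the highest library for each of these 4 genes.

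**Figure D4:**
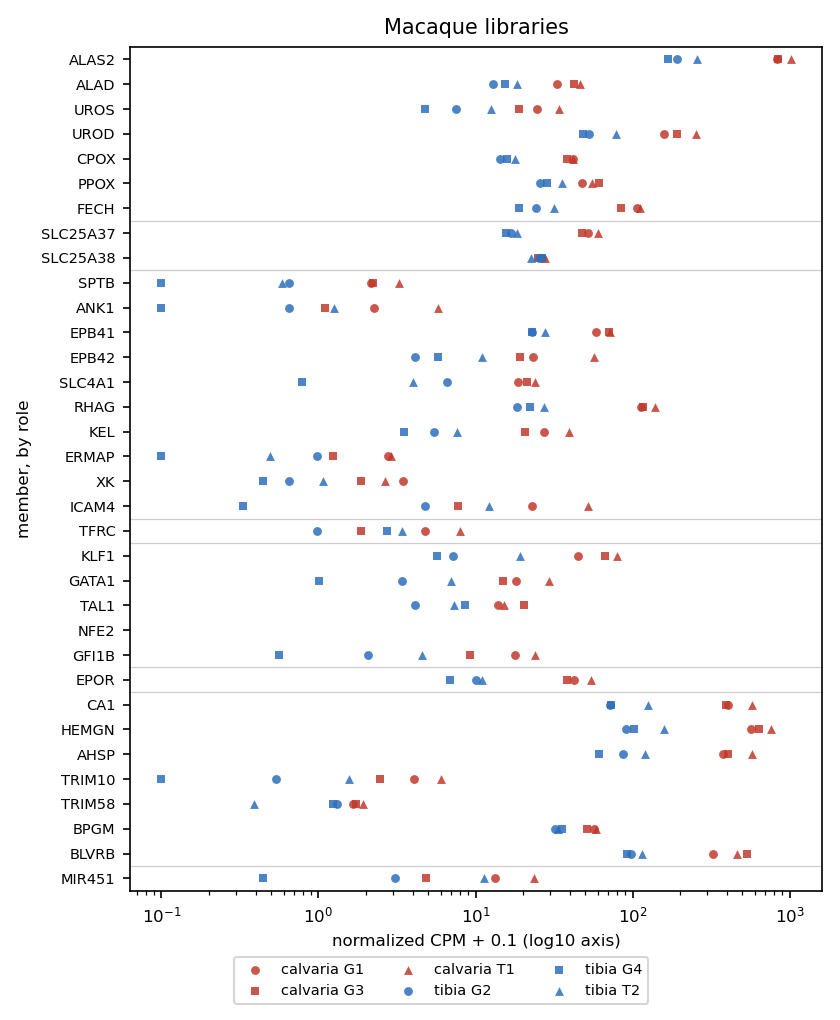
Normalized CPM of each member in the 6 macaque libraries, with 0.1 added, on a log10 axis. The calvariae (red) lie to the right of the tibias (blue) for 23 of 27 members with their own symbol, against 12.8% of all tested genes. T2 is the highest tibia for 22 of the 27, against 35.9% of all tested genes.

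KLF1, the factor that turns on adult beta globin, stood in macaque at 45, 66.3 and 79.1 CPM in the calvariae and at 7.11, 5.59 and 19.1 CPM in the tibias, with a log2 fold change of 2.57 ± 0.298 (SE, adjusted p = 3.32e-08 in edgeR). Mouse KLF1 had 81.8 and 239 CPM in the calvariae and 84 and 85.6 CPM in the tibias, where M4 was level with the tibias and M8 was 2.92 times M4. Rat KLF1 had 308 CPM in calvaria and 164 CPM in tibia. GATA1, the master factor of the lineage, which megakaryocytes and mast cells also make, had in macaque 149, 118 and 242 reads in the calvariae and 30, 8 and 71 in the tibias. These were 18, 14.8 and 29.3 CPM in the calvariae and 3.28, 0.913 and 6.89 CPM in the tibias, with a log2 fold change of 2.46 ± 0.403 (SE). In mouse GATA1 had 26 and 86.4 CPM in the calvariae and 33.2 and 29.7 CPM in the tibias. Both rat rows of GATA1 were at 0 reads, which allows up to 0.21 CPM in calvaria and 0.245 CPM in tibia by counting error. The other 4 factors had 920 to 15505 reads in the same calvaria library, and no level of GATA1 is drawn from these rows. GFI1B, a repressor of erythroid and megakaryocytic cells, had the largest macaque fold change of the members. GFI1B stood at 17.8, 9.15 and 23.7 CPM in the calvariae and at 1.97, 0.457 and 4.47 CPM in the tibias, with a log2 fold change of 2.85 ± 0.449 (SE, adjusted p = 1.14e-05 in edgeR). Mouse GFI1B had 4.1 and 13 CPM in the calvariae and 4.75 and 5.61 CPM in the tibias, and rat GFI1B 64.5 CPM in calvaria and 36 CPM in tibia. TAL1, which binds beside GATA1, had the highest mean per length of the factors in rat, with 1088 CPM in calvaria and 709 CPM in tibia. In macaque TAL1 stood at 13.7, 20.2 and 15 CPM in the calvariae and at 4.05, 8.45 and 7.18 CPM in the tibias, the smallest fold change of the factors (1.31), and in mouse it had 127 and 382 CPM in the calvariae and 149 and 166 CPM in the tibias. NFE2, a factor of globin and platelet genes, ranged from 167 to 362 CPM in mouse, where M4 at 216 CPM and M8 were both above the tibias, and had 486 CPM in calvaria and 309.9 CPM in tibia in rat.

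EPOR, the erythropoietin receptor, was among the 5 of 30 mouse members with both calvariae above both tibias, an order that 17.3% of all tested genes had. Its mouse values were 75.7 and 129 CPM in the calvariae and 64.8 and 64.6 CPM in the tibias, with means of 102 ± 37.6 and 64.7 ± 0.0839 CPM (SD, n = 2) and an adjusted p of 0.56 by the quasi-likelihood test of edgeR. In macaque EPOR stood at 42.4, 38.1 and 54.4 CPM in the calvariae and at 9.95, 6.73 and 10.9 CPM in the tibias, and its log2 fold change of 2.29 had an SE of 0.252. Rat EPOR had 71.2 CPM in calvaria and 40.8 CPM in tibia. Megakaryocytes and mast cells share some of these factors. Of 5 megakaryocyte and platelet markers 3 were called higher in macaque calvaria, with a median log2 fold change of 4.00 and sums of 242 to 355 CPM in the calvariae and 14.6 to 30.5 CPM in the tibias. In mouse none of 7 was called, with 1098 and 1503 CPM against 1089 and 816 CPM, and rat had 1379 CPM in calvaria and 566 CPM in tibia. Mast cell markers summed to 20.1 to 25.4 CPM in macaque calvariae and 5.71 to 21 CPM in the tibias (1 of 3 called, TPSB2 at 0 in each library), to 36.9 to 43.3 CPM in mouse, and to 308 and 239 CPM in rat. Of 5 markers of cycling cells 4 were called higher in macaque calvaria, with 1147 to 1423 CPM against 313 to 360.4 CPM, and none in mouse, where M8 was the highest library at 2107 CPM. In rat they summed to 1282 and 839 CPM. Their part in the values of the factors was not tested.

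AHSP, the chaperone of free alpha globin, had the highest mean per length over both sites in macaque and rat, although in rat tibia MIR451 was higher, at 3329 against 2439 CPM per kb. In macaque AHSP stood at 374, 405 and 576 CPM in the calvariae and at 87.3, 60.7 and 120.4 CPM in the tibias, with a log2 fold change of 2.34 ± 0.217 (SE). Rat AHSP had 53522 calvaria reads and 16618 tibia reads, or 3755 CPM in calvaria and 1358 CPM in tibia, the largest rat ratio of the members (1.47, 95% counting interval 1.44 to 1.49). CA1, a carbonic anhydrase of mature red cells, had a rat ratio of 1.40. Its rat values were 790.1 CPM in calvaria and 299 CPM in tibia. Macaque CA1 stood at 406, 396 and 578 CPM in the calvariae and at 71.7, 73.1 and 125 CPM in the tibias (log2 fold change 2.35), and the mouse row under an older symbol had 59.9 and 199 CPM in the calvariae and 75.7 and 95.4 CPM in the tibias. HEMGN, a nuclear protein of erythroid cells, stood in macaque at 566, 636 and 757 CPM in the calvariae and at 90.9, 103 and 159.6 CPM in the tibias, and its adjusted p of 2.35e-11 in edgeR was the smallest of the members. Mouse HEMGN had 102 and 259 CPM in the calvariae and 133 and 131 CPM in the tibias and rat HEMGN 808 CPM in calvaria and 455 CPM in tibia. BLVRB, a biliverdin reductase with the highest mean per length of these proteins in mouse, stood in macaque at 328, 536 and 459 CPM in the calvariae and at 98.2, 92.2 and 114 CPM in the tibias. Mouse BLVRB had 116 and 191 CPM in the calvariae and 101 and 122 CPM in the tibias and rat BLVRB 58.4 CPM in calvaria and 32.3 CPM in tibia. BPGM makes the bisphosphoglycerate that lowers the oxygen affinity of hemoglobin. It had the smallest difference among the called macaque members, at 56.8, 51.3 and 58.2 CPM in the calvariae and at 31.9, 35.3 and 33.2 CPM in the tibias (log2 fold change 0.73 ± 0.202, SE). In mouse BPGM had 128 and 284 CPM in the calvariae and 177 and 208 CPM in the tibias and in rat 582 CPM in calvaria and 326 CPM in tibia. TRIM10 and TRIM58 are ubiquitin ligases of late erythroblasts. Macaque TRIM10 stood at 3.98, 2.38 and 5.94 CPM in the calvariae and at 0.437, 0 and 1.46 CPM in the tibias and was called (log2 fold change 2.63), with 36.8 and 77.4 CPM in the calvariae and 54.7 and 55.8 CPM in the tibias in mouse and 58.6 CPM in calvaria and 49.1 CPM in tibia in rat. TRIM58 was near the limit of detection, from 0.291 to 1.82 CPM in macaque, from 0.064 to 1.45 CPM in mouse, and with 15 and 4 reads in rat.

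**Figure D5:**
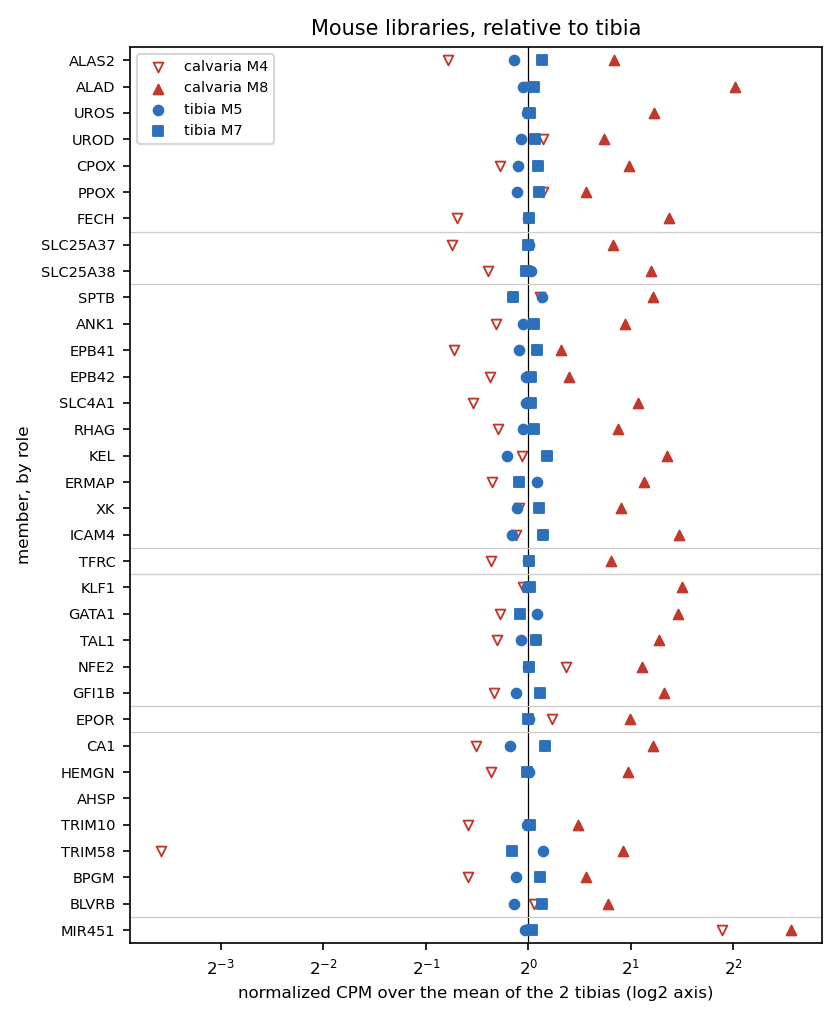
Normalized CPM of each member in the 4 mouse libraries over the mean of both tibias, on a log2 axis. For most members calvaria M8 (filled triangles) lies to the right and calvaria M4 (open triangles) at or to the left of the tibias, while for MIR451 M4 is 3.70 times and M8 5.89 times the tibia mean.

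MIR451 had the largest mouse fold change of the members and was the only member lower in rat calvaria than in rat tibia. In mouse it had 6141 and 8213 reads in calvariae M4 and M8 and 1835 and 1593 reads in tibias M5 and M7, or 393 and 626 CPM in the calvariae and 104 and 109 CPM in the tibias. Both calvariae were well above both tibias, as they were, with smaller differences, for EPOR, NFE2, PPOX and UROD. This order held for 17.3% of all tested genes. Of the other members 18 were lowest in M4, against 21.2% of all tested genes. The means were 509 ± 165 and 106 ± 3.73 CPM (SD, n = 2), and the log2 fold change was 2.26 ± 0.292 (SE, adjusted p = 0.0013 in edgeR). It stayed between 1.88 and 2.53 with any 1 library left out. The call depended on which genes were tested: with filterByExpr of edgeR 29 of 15402 genes were called and MIR451 was not (adjusted p = 0.224), and with only genes read in every library 14 of 16740 were called and MIR451 was not (0.232, the same edgeR test). Set against the sum of the other members in the same library, MIR451 amounted to 12.5% in M4, 7.41% in M8, 2.59% in M5 and 2.59% in M7. In rat the order was the opposite, with 2055 reads in calvaria and 2932 in tibia, a log2 ratio of -0.73 (95% counting interval -0.82 to -0.65), or 0.908% and 2.74% of the other members. With TMM factors the ratio was -0.45. In macaque MIR451 had 110, 38 and 194 reads in the calvariae and 27, 3 and 115 in the tibias, and calvaria G3 was below tibia T2. Its log2 fold change there was 1.5 ± 0.528 (SE, adjusted p = 0.062 in edgeR). MIR451 was not called by DESeq2 (0.512), by edgeR's exact test (0.283) or by edgeR's likelihood ratio test (0.229). In the quasi-likelihood test of edgeR it was not called with filterByExpr (0.267) or with genes read in every library (0.261). The same test did not call it without G3 or T1 (0.25 and 0.219). Its share of the other members ranged from 0.0447% in G4 to 0.989% in T2 and did not follow the site. MIR144, the neighbour on the same strand, had 10 and 74 reads in mouse calvariae M4 and M8 and 2 and 7 in tibias M5 and M7, 9 reads in each rat library and at most 2 in a macaque library. Mir451b, the overlapping gene on the other strand, was listed at 0 in the 4 mouse libraries, and how the counting divided reads between these rows is not given in the sources used here.

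The difference between the macaque and the mouse site effect was tested over 10 libraries, with rows under another symbol included. Of the 32 members with a row in both species, 9 differed, each with the larger shift to calvaria in macaque, where 4.93% of 11568 genes differed in either direction and 3.39% in this direction. RHAG had the smallest p, with log2 fold changes of 0.40 in mouse and 2.44 in macaque and a difference of 2.05 ± 0.423 (SE, adjusted p = 0.0544 in edgeR). The others were BLVRB, EPOR, HEMGN, EPB41, ALAS2, UROD, EPB42 and CA1, with differences of 1.30 (UROD) to 2.21 (EPB42). The difference was near 0 for ALAD (0.06, standard error 0.585), and below 0 for SLC25A38 (-0.50) and MIR451 (-0.75, standard error 1.06), none of which was called. None of the 9 passed at an adjusted p under 0.05. Heme synthesis gave 2 of the 9, the membrane 3, the receptor 1 and the other erythroid proteins 3, while none of the transcription factors was called.

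Other genes of the same pathways, listed as 40 symbols that are no members, were counted beside them. In macaque 20 of 27 with a row were called, each with the higher level in calvaria, against 10.3% of all tested genes. Their median log2 fold change was 1.26. In mouse 1 of 36 was called higher in calvaria, against 0.712% of all tested genes, and none higher in tibia. The mouse median was 0.39, with 30 of 36 above 0 against 53.7% of all tested genes. In rat 30 of 33 had a ratio above 0, against 34.2% of all genes, with a median of 0.57. Of the hemoglobin chains, 2 of 4 were called higher in calvaria in macaque and 0 of 4 in mouse, beside the same shares of all genes.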

How the data were processed

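RNA-seq libraries of mouse (4), rat (2) and macaque (6) bone were analysed. Per the authors' methods, reads were mapped with HISAT2 2.0.5 to mm10, rn6 and MacaM and counted without strand by HTSeq-count over merged exons, while the labels' processing notes name BWA 0.7.10-r789 and edgeR 3.16.5. The deposited raw counts were used. The deposited normalized signal columns are the counts times 1 constant per library set by the authors and were not used.

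Rows naming no gene (0.00261 to 0.0663% of reads) were left out, and every symbol with a read in a species was tested. Counts were fitted with edgeR 4.0.16 (TMM, quasi-likelihood, R 4.3.3), with an adjusted p under 0.2 and a fold change over 1.1 for a call. The SE is the absolute log2 fold change divided by the square root of the test's F. Rat ratios have 95% intervals, and floors are 3 reads, both for counting error only. On simulated counts with 200 genes changed by a log2 fold of 2, 140 were recovered in mouse (16.2% false calls) and 195 in macaque (18.8%). The simulation gave every gene the common dispersion and changed only genes with a mean over 1 CPM. Its fold exceeded the mouse member median of 0.53, so it does not give the power for the mouse members. The macaque pairs G1 and G2, G3 and G4, and T1 and T2 were assumed from name order, since the methods state that the sites were paired within animals but not which libraries. Residuals of these pairs correlated over 12305 genes (r = 0.169, 0.244 and 0.421), those of other combinations at -0.31 to 0.0784.

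Members and lists were chosen with earlier results of these data known. Values in each library were given for members called, past the rat limit or highest per length in their role, and for ALAS2, FECH, SLC4A1, SPTB, GATA1, KLF1, TFRC, EPOR and MIR451. Marker lists were osteocyte, neutrophil, megakaryocyte and platelet, B cell, mast cell, skeletal muscle, cycling cells and hemoglobin chains. Mouse positions and sequences came from GENCODE vM21 on GRCm38. Alternatives covered scaling, filters, tests, thresholds, blocks and each library left out. DESeq2 was version 1.42.0.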

Additional observations from a re-analysis of the deposited data

Results flagged for a closer look

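The site difference was tested between species for 32 members, and 9 members were flagged because the log2 fold change in macaque minus that in mouse had an adjusted p under 0.2 in the quasi-likelihood test of edgeR. The difference was 2.05 for RHAG (adjusted p = 0.0544 in edgeR), 1.67 for BLVRB (0.0638), 1.64 for EPOR, 2.04 for HEMGN and 1.58 for EPB41 (0.0812 each), 1.90 for ALAS2 (0.13), 1.30 for UROD (0.157), 2.21 for EPB42 (0.16) and 1.78 for CA1 (0.198, and 0.221 with RLE factors). The log2 fold change was larger in macaque for all 9. In mouse, calvaria M4 lay below and M8 above both tibias for RHAG, HEMGN, EPB41, ALAS2, EPB42 and CA1. Mouse and macaque libraries also differed in sequencing lane, genome, annotation and handling of the bone, and these cannot be told apart from species.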

How the results depend on the processing

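With 1 library left out at a time, the mouse count of called members ranged from 1 to 29 and the median log2 fold change from -0.29 (without M8) to 1.01 (without M4). The fit without a mouse library leaves 1 library at a site, which is then assumed to vary like the other site. Members whose mouse direction turned in such a fit had these ranges: TRIM58 -3.44 to 0.88, BPGM -0.59 to 0.54, ALAS2 -0.79 to 0.81, UROS -0.0081 to 1.20, CPOX -0.28 to 0.95, FECH -0.70 to 1.34, SLC25A37 -0.75 to 0.80, SLC25A38 -0.40 to 1.17, ANK1 -0.32 to 0.91, SLC4A1 -0.55 to 1.05, RHAG -0.30 to 0.85, KEL -0.0644 to 1.33, ERMAP -0.37 to 1.1, XK -0.0972 to 0.88, ICAM4 -0.12 to 1.45, TFRC -0.37 to 0.78, KLF1 -0.056 to 1.47, GATA1 -0.28 to 1.43, TAL1 -0.32 to 1.25, GFI1B -0.34 to 1.30, HEMGN -0.37 to 0.95, TRIM10 -0.59 to 0.46. The mouse count was 0 with filterByExpr and 0 with genes read in every library, where 29 and 14 of all tested genes were called. Over all genes the mouse count of calls was 510 as reported, 739 with the likelihood ratio test, 208 at an adjusted p under 0.05, 31 over symbols read in all 3 species, 295 and 395 with a replicate block for 2 assumed pairings, and 220 to 7470 with 1 library left out. Mouse TRIM10 turned to -0.0504 with library size alone, -0.049 with the replicate block and -0.0482 with the other pairing, and BPGM to -0.00918 and -0.00898 with these blocks. In macaque the count of called members stayed between 19 and 25, over differing numbers tested. It was 19 of 23 with genes read in every library, 21 of 25 with filterByExpr and 25 of 27 without T2. The macaque median was 1.84 with library size alone, 1.75 with genes read in every library and 1.76 to 2.28 with 1 library left out. SLC25A38 turned to -0.12 with library size alone. At an adjusted p under 0.05 there were 1978 genes called in macaque in place of 3724. At the limit of 0.2 there were 2301 without G3, 4998 without T2 and 4784 with the replicate block. The replicate block changed the macaque call of TFRC (log2 fold change 1.02, adjusted p = 0.12 in edgeR) and no other member's call in mouse or macaque. The rat count was 4 past a log2 ratio of 1, and 18 past it with TMM factors, a combination chosen after seeing the data. The count of members that differed between macaque and mouse was 0 at an adjusted p under 0.05, where 62 of all tested genes were called, and the difference of ALAD turned to -0.00469 with RLE factors, with which the call of CA1 was lost (1.71, adjusted p = 0.221 in edgeR). The cause of these changes was not tested. SPTB, ANK1, ERMAP, XK, TRIM10, TRIM58 and TFRC had few or no reads in single macaque libraries, and the part of depth in this was not tested.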
